A study of Homo sapiens with 4 samples.

Results

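Leukocyte adhesion molecules were followed here as 10 genes, ICAM1, VCAM1, ICAM3, PECAM1, ITGAL, ITGAM, ITGAX, ITGA4, ITGB2 and SELPLG, among 19775 genes named on the arrays. They were taken by symbol, as probe sets annotated to 1 gene only, which gave 25 probe sets. All 10 genes had a signal above background on at least 1 array. Transcripts of 4 cell samples were measured on the U133 Plus 2.0 human GeneChip, each sample on 1 array. THP-1 is a human monoblastoid leukemia cell line, and the sublines compared express either Siglec-14 or Siglec-5, sialic acid-binding receptors of myeloid cells. Siglec-14,NTHi[+] and Siglec-5,NTHi[+] had been given heat-killed bacteria of nontypeable Haemophilus influenzae, or NTHi, strain 2019, for 6 h in serum-free medium, with 100 bacteria to each cell. Siglec-14,NTHi[−] and Siglec-5,NTHi[−] were incubated for the same time without bacteria. The sublines stand in for monocytes of people with and without a functional SIGLEC14 gene. Each is a single line, so that an effect of the expressed Siglec and any other difference between the sublines cannot be told apart.

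Leukocytes leave the blood in steps. Selectins on the vessel wall catch PSGL-1, the mucin encoded by SELPLG, and slow the cell. Integrins, which are pairs of an α and a β subunit, then bind immunoglobulin-type ligands and hold the cell in place, and PECAM-1 serves its passage between endothelial cells. ITGB2 encodes the β subunit shared by LFA-1 (ITGAL), Mac-1 (ITGAM) and CD11c/CD18 (ITGAX), whose ligands include ICAM-1 and ICAM-3. ITGA4 encodes the α subunit of VLA-4, the receptor of VCAM-1. ICAM1 and VCAM1 are textbook targets of NF-κB in stimulated cells, whereas the β2 integrins are carried by resting leukocytes.

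The values are signal intensities on a linear scale, and a signal under the median of all signals, 16, is treated as background (the floor). A gene is represented by its probe set with the highest mean signal, and signals are compared between arrays but not between genes. The sum of all signals ran from 12735500 to 14047100 over the 4 arrays and the median from 15.1 to 16.5. Each condition rests on 1 array without replicates, and single values and pairs of arrays therefore carry neither an error nor a test. As a measure of spread, the SD of the log2 ratio over probe sets of similar brightness was 0.22 (bright) or 0.40 (dimmer) for NTHi in Siglec-14/THP-1, 0.23 or 0.41 for NTHi in Siglec-5/THP-1, 0.41 or 0.50 for Siglec-14/THP-1 over Siglec-5/THP-1 with NTHi and 0.40 or 0.50 without. These SDs hold true differences as well as error. The SIGLEC5 probe set had signals near or below the floor on every array, 4.13 to 21.6, and SIGLEC14 was not analysed here, so the labels of the sublines were not checked by their own transcripts. LYZ, a lysozyme gene of monocytic cells, had signals of 3036 to 3430, whereas CD14 lay below the floor on all 4 arrays. The sum over 6 endothelial markers, of which 3 reached the floor on at least 1 array, was 121 in Siglec-14,NTHi[+], 117 in Siglec-14,NTHi[−], 73.4 in Siglec-5,NTHi[+] and 83.1 in Siglec-5,NTHi[−]. The sum over 7 markers of T and NK cells ran from 321 to 446 over the 4 arrays, mostly from NKG7 (240 to 363), that over 3 B cell markers from 40.9 to 66.0 and that over 5 platelet markers from 73.2 to 92.8. The sum over 5 fibroblast markers, mostly COL1A1, was 299 in Siglec-14,NTHi[+], 305 in Siglec-14,NTHi[−], 161 in Siglec-5,NTHi[+] and 173 in Siglec-5,NTHi[−].

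**Figure D1:**
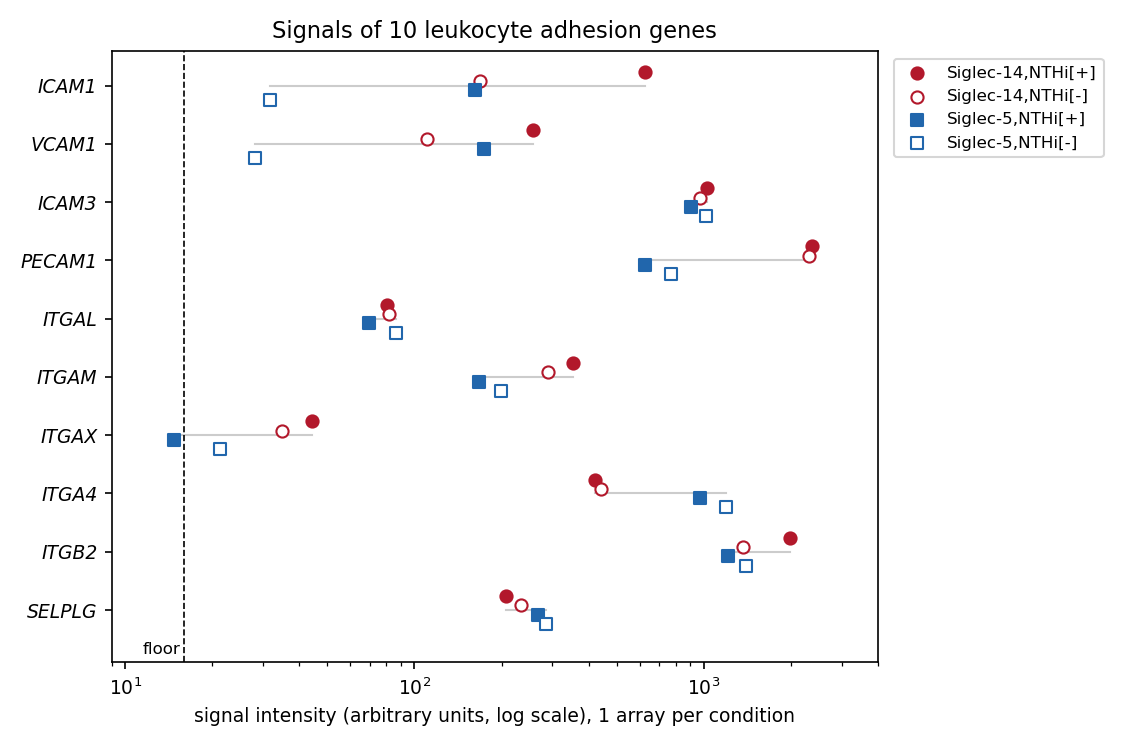
Signal intensity (log scale) of the 10 adhesion genes, each on its brightest probe set, with 1 point per array, and the floor as a dashed line. ICAM1 and VCAM1 spread with NTHi and between the lines, PECAM1 and ITGA4 separate the lines in opposite directions, and ICAM3, ITGAL and SELPLG stay close together on the 4 arrays.

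With NTHi, ICAM1 and VCAM1 had higher signals in both cell lines, and no other member reached 2-fold on its brightest probe set. In Siglec-14/THP-1 1 of the 10 genes reached 3-fold with NTHi, ICAM1, against 0.189% of all genes that reached the floor in this pair. In Siglec-5/THP-1 2 of the 10 did, ICAM1 and VCAM1, against 0.261% of all genes. No member was 3-fold lower in either line, where 0.0681% of genes in Siglec-14/THP-1 and 0.0384% in Siglec-5/THP-1 were. At least 2-fold higher were ICAM1 and VCAM1 in each line, against 1.17% of genes in Siglec-14/THP-1 and 0.876% in Siglec-5/THP-1, and 0 members were 2-fold lower, against 0.621% and 0.884%. The study lists ICAM1 among the genes it chose on these arrays, so its count is not independent evidence. All 10 members were chosen here with earlier results of these data known, which limits the other counts in the same way.

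ICAM1 encodes CD54, the ligand of LFA-1 and Mac-1, which is also shed in soluble form. Its signal was 625 in Siglec-14,NTHi[+], 168 in Siglec-14,NTHi[−], 161 in Siglec-5,NTHi[+] and 31.7 in Siglec-5,NTHi[−]. On this brightest probe set stimulated Siglec-5/THP-1 thus lay beside nonstimulated Siglec-14/THP-1, with stimulated Siglec-14/THP-1 above both. A second probe set had 130 in Siglec-5,NTHi[+] and 108 in Siglec-14,NTHi[−], and the dimmest had 49.1 and 68.1. Siglec-14,NTHi[+] was the highest on each. On the brightest probe set the fold with NTHi was 3.72 in Siglec-14/THP-1 and 5.09 in Siglec-5/THP-1. The gain in signal was 457 in Siglec-14/THP-1 and 130 in Siglec-5/THP-1. The signal in Siglec-5,NTHi[−] lies near the floor, so the size of the fold in Siglec-5/THP-1 is uncertain. The other probe sets of ICAM1 gave the same order for NTHi, with folds of 2.02 to 3.72 in Siglec-14/THP-1 and 2.29 to 5.24 in Siglec-5/THP-1 over 3 probe sets. The smallest folds came from the dimmest probe set, and the log2 mean over the 3 probe sets was under 3-fold in Siglec-14/THP-1.

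VCAM1 encodes CD106, the counter-receptor of VLA-4, best known on activated endothelium. It had 257 in Siglec-14,NTHi[+], 110 in Siglec-14,NTHi[−], 174 in Siglec-5,NTHi[+] and 28.2 in Siglec-5,NTHi[−], on its 1 probe set. The fold with NTHi was 2.33 in Siglec-14/THP-1 and 6.18 in Siglec-5/THP-1, the latter over a signal near the floor. The gain in signal, as deposited, was nearly the same in the lines, 147 in Siglec-14/THP-1 and 146 in Siglec-5/THP-1. This likeness depends on the scale of the arrays, whose sums of signals differ. The log2 response, Siglec-14/THP-1 minus Siglec-5/THP-1, differed by -1.41 for VCAM1 and by -0.45 for ICAM1. With 1 array per condition the difference between the lines in response was not tested. Of the 6 endothelial markers, CDH5, VWF and TEK did not reach the floor on any array, KDR (26.5 to 42.6) and CLDN5 (31.4 to 45.0) were above it on all 4, and TIE1 was above it on both Siglec-14/THP-1 arrays only. Their part in the signal of VCAM1 was not tested.

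The bases before the start of these genes are shown because ICAM1 and VCAM1 are the members whose signals moved with NTHi. Both runs are the 250 bases upstream of the RefSeq start, read 5′ to 3′ on the plus strand of GRCh38.p14, at chr19:10270870-10271119 for ICAM1 and chr1:100719492-100719741 for VCAM1. Capitals mark matches to GGNNNTTCC or to the NF-κB consensus, on either strand.
ICAM1: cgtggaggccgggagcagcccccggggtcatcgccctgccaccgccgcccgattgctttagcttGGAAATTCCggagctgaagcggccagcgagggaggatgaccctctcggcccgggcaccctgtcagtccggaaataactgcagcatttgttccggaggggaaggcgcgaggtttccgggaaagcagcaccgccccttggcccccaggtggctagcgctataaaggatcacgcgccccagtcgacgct
VCAM1: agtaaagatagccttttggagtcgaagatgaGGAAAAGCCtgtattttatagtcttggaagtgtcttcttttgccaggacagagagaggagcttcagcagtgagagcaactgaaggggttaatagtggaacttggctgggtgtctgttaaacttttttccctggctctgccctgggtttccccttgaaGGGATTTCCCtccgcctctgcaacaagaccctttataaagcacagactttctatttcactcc

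ICAM1 held 1 match to GGNNNTTCC, 186 to 178 bases upstream of the start, and none to the NF-κB consensus. VCAM1 held 2 matches to GGNNNTTCC, and that at 62 to 54 bases upstream lay within a match to the consensus. Over 35116 windows of the same length, 17.1% held GGNNNTTCC and 5.21% the consensus. Windows were matched for 5 of the 10 members, and those of ITGA4, ITGAM and ICAM3 held neither motif. The letters GAGGAAG, a core bound by PU.1 and other ETS factors, occurred in the window of ITGAM, 127 to 121 bases upstream, and in 11.2% of all windows. No window of the 5 members held the AP-1 letters TGANTCA, against 6.57% of all windows. These matches describe the sequence and were not tested as sites.

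The remaining immunoglobulin-type ligands did not follow. ICAM3 encodes CD50, a ligand of LFA-1 on resting leukocytes. It had 1027 in Siglec-14,NTHi[+], 973 in Siglec-14,NTHi[−], 902 in Siglec-5,NTHi[+] and 1015 in Siglec-5,NTHi[−]. Its folds with NTHi were 1.06 in Siglec-14/THP-1 and 0.889 in Siglec-5/THP-1, both within the SD of probe sets of similar brightness. PECAM1, which encodes CD31, had folds with NTHi of 1.03 in Siglec-14/THP-1 and 0.814 in Siglec-5/THP-1. The log2 ratio in Siglec-5/THP-1, -0.30, was beyond the SD of 0.23 counted from 0, where the median of similar probe sets was itself -0.11. In that line the 4 probe sets with both signals above the floor had folds of 0.638 to 0.816. In Siglec-14/THP-1 all 5 probe sets had folds of 0.919 to 1.53.

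**Figure D2:**
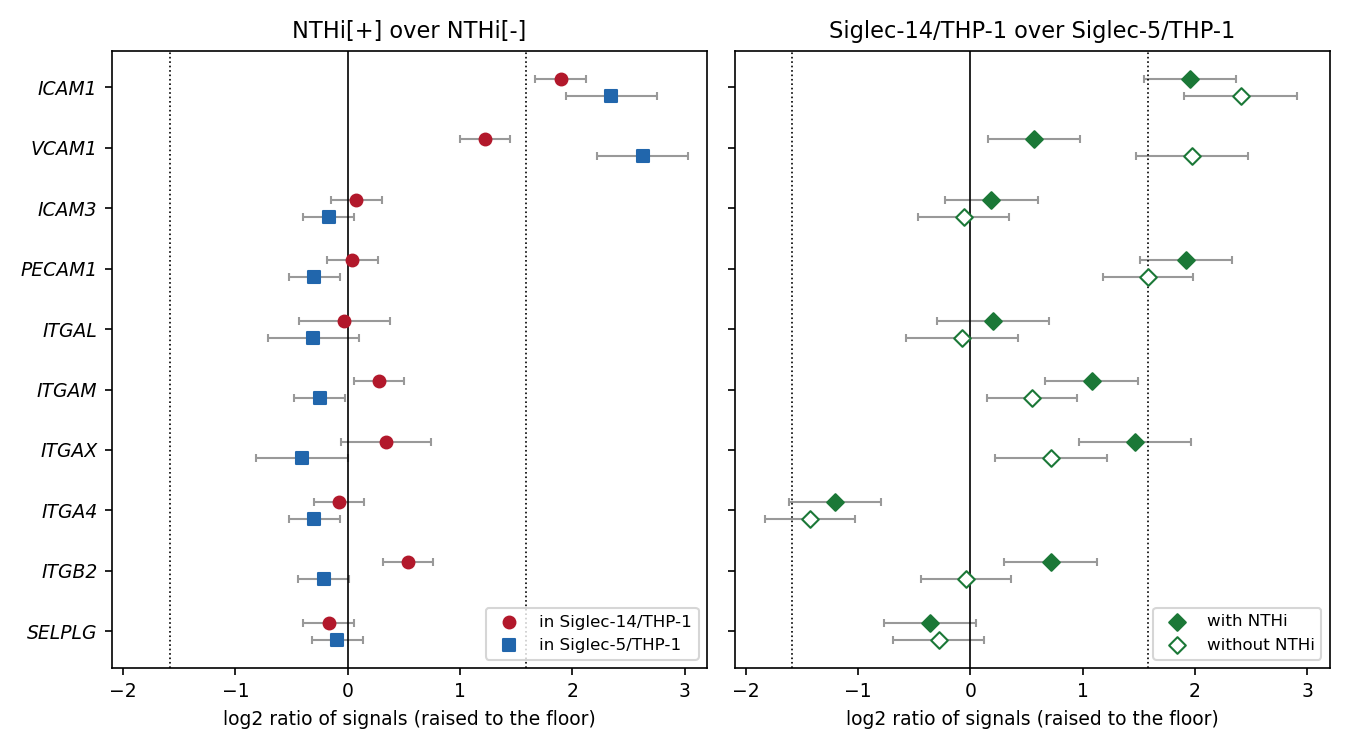
Log2 ratio of signals for the 10 genes, NTHi[+] over NTHi[−] in each cell line (left) and Siglec-14/THP-1 over Siglec-5/THP-1 with and without NTHi (right). Bars are 1 SD of the ratio over probe sets of similar brightness, not replicate error, and dotted lines mark a ratio of 3. ICAM1 and VCAM1 lie right of all other genes on the left, and ITGA4 alone lies beyond a 2-fold lower ratio on the right.

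Between the cell lines the members differed in both directions. With NTHi, 2 of the 10 genes were at least 3-fold higher in Siglec-14/THP-1, ICAM1 and PECAM1, against 1.63% of all genes. Without NTHi, 2 of the 10 were, ICAM1 and VCAM1, against 1.21%. The study chose ICAM1 on these arrays partly for its difference between the lines, so its place in these counts is not independent evidence. The other members too were chosen with earlier results of these data known. No member was 3-fold lower, against 0.0382% of genes with NTHi and 0.113% without. At a 2-fold threshold, 4 genes were higher and 1 was lower with NTHi, against 4.36% and 0.962% of genes, and 3 higher and 1 lower without, against 3.19% and 1.43%. The comparisons share arrays, since each array stands in a comparison for NTHi and in one between the lines. The median log2 ratio over the 10 genes between the lines was 0.64 with NTHi, against 0.06 over all genes, and 0.26 without, against -0.12.

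ICAM1 was 3.87-fold higher in Siglec-14/THP-1 than in Siglec-5/THP-1 with NTHi and 5.30-fold higher without. Over its 3 probe sets the range was 2.80-fold to 3.87-fold with NTHi, where only the brightest reached 3-fold, and 3.18-fold to 5.30-fold without. VCAM1 was 1.48-fold higher with NTHi and 3.92-fold higher without. The signals of ICAM1 and VCAM1 in Siglec-5,NTHi[−] lie near the floor, so the size of their ratios without NTHi is uncertain. With 16 added to each signal the ratio of VCAM1 without NTHi falls under 3. PECAM1 encodes a homophilic receptor of leukocytes, platelets and endothelium that carries inhibitory signaling motifs. Its signal was 2376 in Siglec-14,NTHi[+], 2307 in Siglec-14,NTHi[−], 627 in Siglec-5,NTHi[+] and 771 in Siglec-5,NTHi[−]. Both Siglec-14/THP-1 arrays were thus above both Siglec-5/THP-1 arrays, 3.79-fold with NTHi and 2.99-fold without. Of the 5 probe sets of PECAM1, 4 were above the floor on all 4 arrays, and these were 2.53-fold to 4.69-fold higher with NTHi and 1.05-fold to 3.91-fold higher without. The lowest value without NTHi came from a dim probe set, with 65.3 in Siglec-14,NTHi[−] and 62.0 in Siglec-5,NTHi[−]. Of the endothelial markers, KDR and CLDN5 had line terms of 0.18 and 0.25 that did not pass the fit (limma adjusted p = 0.87 and 0.76), CDH5, VWF and TEK were below the floor on all 4 arrays, and TIE1 passed as higher in Siglec-14/THP-1 (limma adjusted p = 0.013). TIE1 had 26.2 in Siglec-14,NTHi[+], 35.5 in Siglec-14,NTHi[−], 6.22 in Siglec-5,NTHi[+] and 1.99 in Siglec-5,NTHi[−], and the part of these markers in the difference of PECAM1 was not tested.

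ITGA4 ran the other way. Its signal was 419 in Siglec-14,NTHi[+], 441 in Siglec-14,NTHi[−], 969 in Siglec-5,NTHi[+] and 1190 in Siglec-5,NTHi[−], so that both Siglec-14/THP-1 arrays lay below both Siglec-5/THP-1 arrays. The ratio of Siglec-14/THP-1 to Siglec-5/THP-1 was 0.433 with NTHi and 0.371 without. Each of its 4 probe sets was lower in Siglec-14/THP-1, with ratios of 0.420 to 0.633 with NTHi and 0.371 to 0.549 without. ITGB1, the β subunit that joins ITGA4 in VLA-4, had 2927 in Siglec-14,NTHi[+], 2654 in Siglec-14,NTHi[−], 2148 in Siglec-5,NTHi[+] and 2218 in Siglec-5,NTHi[−]. Its ratio of Siglec-14/THP-1 to Siglec-5/THP-1 was 1.36 with NTHi and 1.20 without. The receptor subunit ITGA4 and its ligand VCAM1 thus stood on opposite sides of the comparison between the lines.

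The α subunits of the β2 integrins differed among themselves. ITGAM encodes CD11b, the α subunit of Mac-1 or complement receptor 3, which takes up opsonized particles. It had 353 in Siglec-14,NTHi[+], 290 in Siglec-14,NTHi[−], 167 in Siglec-5,NTHi[+] and 198 in Siglec-5,NTHi[−]. The ratio of Siglec-14/THP-1 to Siglec-5/THP-1 was 2.11 with NTHi and 1.46 without. On the dimmer probe set of ITGAM the signals were near the floor, 18.5 in Siglec-14,NTHi[+], 13.0 in Siglec-14,NTHi[−], 17.2 in Siglec-5,NTHi[+] and 23.9 in Siglec-5,NTHi[−], and the ratio without NTHi ran the other way. TYROBP, which encodes the adaptor DAP12 and was among the monocytic markers, moved with ITGAM: its signals were 376 in Siglec-14,NTHi[+], 329 in Siglec-14,NTHi[−], 186 in Siglec-5,NTHi[+] and 205 in Siglec-5,NTHi[−]. Of 8 monocytic markers 6 were matched and 4 reached the floor, and their summed signal was 3516 in Siglec-14,NTHi[+], 3608 in Siglec-14,NTHi[−], 3456 in Siglec-5,NTHi[+] and 3717 in Siglec-5,NTHi[−]. LYZ made up most of that sum. CSF1R had ratios of Siglec-14/THP-1 to Siglec-5/THP-1 of 1.32 with NTHi and 1.78 without. SPI1 had 1.10 and 1.13, and LYZ 0.955 and 0.925, all within the SD of similar probe sets. Thus 3 of the 4 markers had higher signals in Siglec-14/THP-1 and LYZ had lower ones, and only TYROBP passed the fit. The part of monocytic maturity in the difference of ITGAM was not tested.

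ITGAX encodes CD11c, which marks macrophages and dendritic cells. It was dim, with 44.2 in Siglec-14,NTHi[+], 34.9 in Siglec-14,NTHi[−], 14.8 in Siglec-5,NTHi[+] and 21.3 in Siglec-5,NTHi[−]. With NTHi the Siglec-5/THP-1 signal lay below the floor, so that ITGAX was at least 2.76-fold higher in Siglec-14/THP-1, and without NTHi it was 1.64-fold higher. ITGAL encodes CD11a, the α subunit of LFA-1. It had 80.2 in Siglec-14,NTHi[+], 81.9 in Siglec-14,NTHi[−], 69.8 in Siglec-5,NTHi[+] and 86.3 in Siglec-5,NTHi[−]. Its ratios ran from 0.809 to 1.15 over the 4 comparisons, within the SD of dimmer probe sets in each. A second probe set of ITGAL likewise stayed between 57.2 and 65.1 on the 4 arrays.

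ITGB2, the shared β subunit CD18, had 1988 in Siglec-14,NTHi[+], 1368 in Siglec-14,NTHi[−], 1211 in Siglec-5,NTHi[+] and 1404 in Siglec-5,NTHi[−]. On this brightest probe set the stimulated Siglec-14/THP-1 array stood above the others, which lay close together. Over the 3 probe sets of ITGB2 the ratio of Siglec-14/THP-1 to Siglec-5/THP-1 was 1.41 to 1.81 with NTHi and 0.974 to 1.24 without. The fold with NTHi was 1.45 in Siglec-14/THP-1 and 0.863 in Siglec-5/THP-1. Over its 3 probe sets, the fold in Siglec-14/THP-1 was 1.17 to 1.45 and that in Siglec-5/THP-1 0.863 to 1.04. The median log2 ratio of all genes was itself 0.08 in Siglec-14/THP-1 and -0.11 in Siglec-5/THP-1, in the same directions. SELPLG, which encodes the ligand of P-selectin, had 207 in Siglec-14,NTHi[+], 233 in Siglec-14,NTHi[−], 266 in Siglec-5,NTHi[+] and 284 in Siglec-5,NTHi[−]. Its ratio of Siglec-14/THP-1 to Siglec-5/THP-1 was 0.778 with NTHi and 0.822 without, within the SD of similar probe sets. The dimmer probe set of SELPLG went another way, with 29.3 in Siglec-14,NTHi[+], 39.4 in Siglec-14,NTHi[−], 44.7 in Siglec-5,NTHi[+] and 8.98 in Siglec-5,NTHi[−], the last of them below the floor. Its ratio for NTHi in Siglec-5/THP-1 was at least 2.79, and that of Siglec-14/THP-1 to Siglec-5/THP-1 without NTHi at least 2.46.

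**Figure D3:**
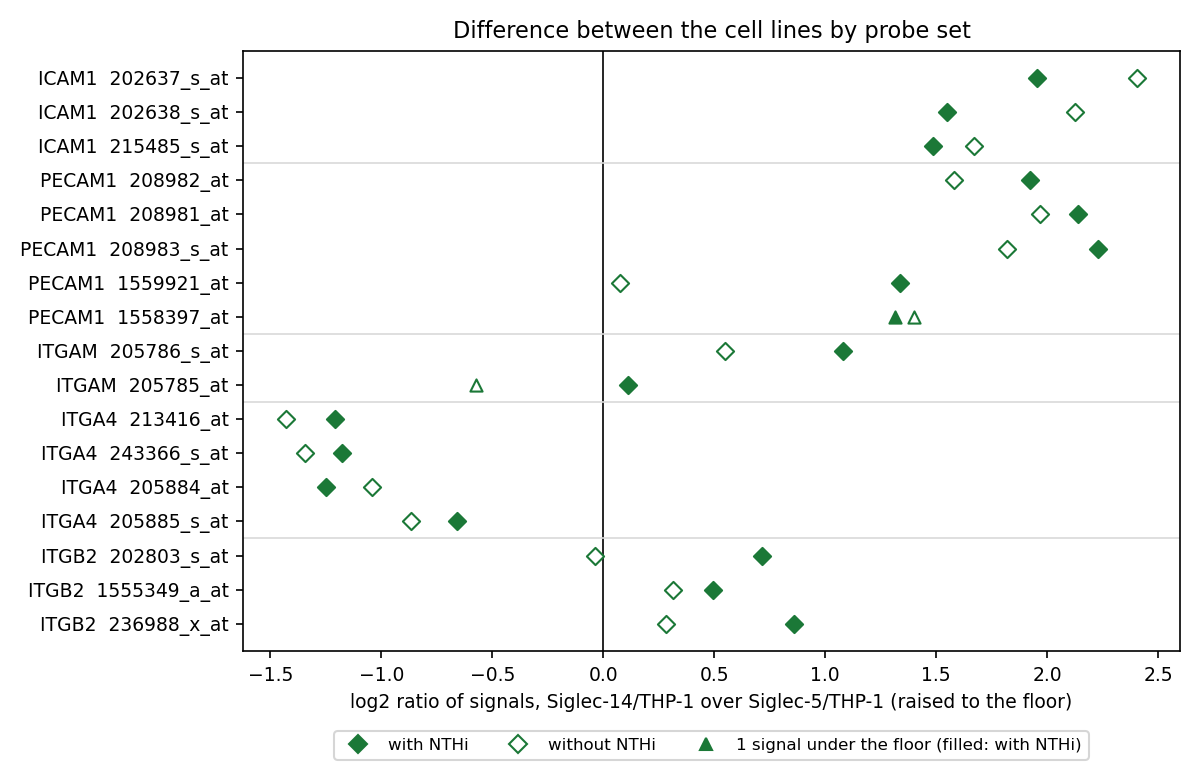
Log2 ratio of Siglec-14/THP-1 to Siglec-5/THP-1, with NTHi (filled) and without (open), for each probe set of 5 genes, brightest at the top of each gene. Triangles are bounds where 1 signal lay under the floor. All 3 probe sets of ICAM1 lie to the right and all 4 of ITGA4 to the left of 0, whereas the probe sets of ITGAM disagree without NTHi.

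A limma model of the 4 arrays held a term for the cell line and a term for NTHi. It leaves 1 residual degree of freedom, which is the difference between the lines in response to NTHi. Its variance is taken from the trend of variance with intensity. The p-values therefore do not measure variation between replicate cultures, of which there were none. The model tests what both lines or both conditions share, and not each line alone. The study chose ICAM1 on these same arrays, so the terms of ICAM1 in this fit are not independent evidence. Since all members were chosen with earlier results of these data known, the counts of members that passed are not independent either. In this fit 2 of the 10 genes rose with NTHi and 0 fell, against 0.99% and 0.294% of all genes tested. They were ICAM1, with a log2 NTHi term of 2.12 (standard error 0.18, limma adjusted p = 5.51e-29), and VCAM1, with 1.92 (standard error 0.19, limma adjusted p = 6.95e-20). These standard errors come from the trend and leave out the difference of -1.41 between the lines in the response of VCAM1. Among 11031 genes with every signal at or above the floor, 4 had a higher mean log2 ratio for NTHi than ICAM1 and 8 a higher one than VCAM1. For the other 8 members the NTHi term lay between -0.19 and 0.16 and did not pass.

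For the cell line, 5 of the 10 genes were higher in Siglec-14/THP-1 and 1 was lower, against 6.22% and 4.95% of all genes. ICAM1 had a line term of 2.18 (standard error 0.18, limma adjusted p = 2.34e-31) and PECAM1 one of 1.75 (standard error 0.15, limma adjusted p = 6.25e-28). VCAM1 followed with 1.27 (standard error 0.19, limma adjusted p = 6.83e-09). ITGAM had 0.81 (standard error 0.16, limma adjusted p = 3.58e-05) on its bright probe set and -0.38 (limma adjusted p = 0.81) on its dim one. ITGAX passed narrowly, with 1.15 (standard error 0.39, limma adjusted p = 0.041). ITGA4 was lower, with -1.32 (standard error 0.15, limma adjusted p = 5.82e-16), and 12 of the 11031 genes had a lower mean log2 ratio between the lines. ICAM3, ITGAL, ITGB2 and SELPLG did not pass, with terms of -0.32 to 0.34. Without the intensity trend limma called 0 probe sets of all those tested in either term (1944 for NTHi and 3746 for the line at an unadjusted p under 0.05), among the members too (2 and 5 at an unadjusted p under 0.05), so the calls rest on that trend.

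**Figure D4:**
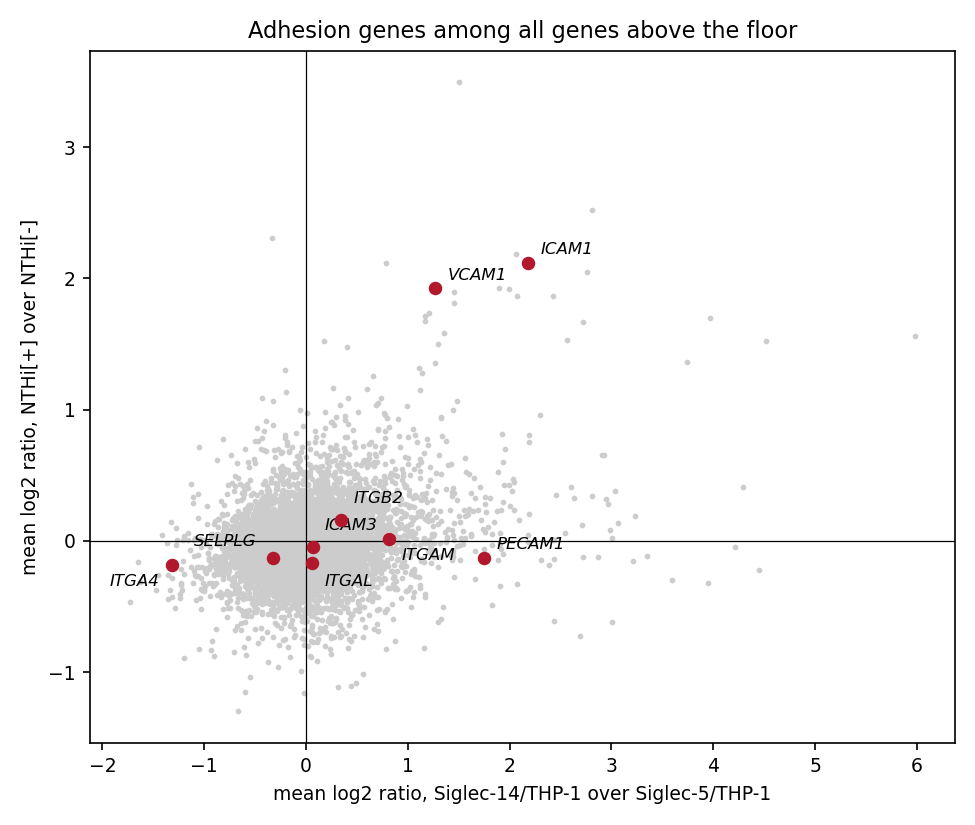
Mean log2 ratio of NTHi[+] to NTHi[−] over both lines against the mean log2 ratio of Siglec-14/THP-1 to Siglec-5/THP-1 over both conditions, for 11031 genes with every signal at or above the floor (grey) and 9 adhesion genes (red). ITGAX is left out, since 1 of its signals lay below the floor. ICAM1 and VCAM1 lie up and to the right, PECAM1 and ITGAM to the right and ITGA4 to the left near 0 for NTHi.

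The genes nearest to ICAM1 and VCAM1 in pattern were sought by the distance of centred log2 signals over the 4 arrays, among the same 11031 genes. This is a description over 4 points. For ICAM1 they were CCL2, CXCL8, TNFRSF9, IL1B and BCL2A1, at distances of 0.17 to 0.71. The study chose all of these but BCL2A1 on these same arrays, by the fold criteria that also chose ICAM1. Their likeness to ICAM1 is therefore partly built in and is not independent evidence. CCL2, a monocyte chemokine, had 429 in Siglec-14,NTHi[+], 118 in Siglec-14,NTHi[−], 129 in Siglec-5,NTHi[+] and 22.6 in Siglec-5,NTHi[−]. For VCAM1 they were NFKBIA, MAML2, SLC2A6, CD40 and TNFAIP3, at distances of 0.30 to 0.53. NFKBIA, which encodes the inhibitor IκBα, had 3393 in Siglec-14,NTHi[+], 1259 in Siglec-14,NTHi[−], 1716 in Siglec-5,NTHi[+] and 333 in Siglec-5,NTHi[−]. The lists for ICAM1 and VCAM1 share no gene, but each holds only 5 of 11031 genes, so this says little about a difference between them.

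Other genes of adhesion were examined in 4 lists. Of 10 tested immunoglobulin-type ligands 2 were higher in Siglec-14/THP-1 in the shared fit, of 16 other integrin subunits 2, of 20 genes of integrin activation 6, and of 15 genes for selectins and the making of their ligands 2. Together these were 12 of 61 genes higher and 2 of 61 lower, against 6.22% and 4.95% of all genes tested. The lists were chosen with earlier results of these data known, so their counts are not independent evidence. The integrin subunits were ITGAV and ITGA6, and NECTIN2, RASSF5, CYTH1 and TPST1 were among the others, with line terms of 0.49 to 0.73 for these 6. Lower in Siglec-14/THP-1 were RASGRP2 of integrin activation and the fucosyltransferase FUT4 of the selectin list. With NTHi, 0 genes of the 4 lists rose and 1 fell in the limma fit (3 higher and 3 lower at an unadjusted p under 0.05), against 0.99% and 0.294% of all genes. FERMT3 encodes kindlin-3, which binds β integrin tails and is needed for their activation in blood cells. It had 138 in Siglec-14,NTHi[+], 102 in Siglec-14,NTHi[−], 22.3 in Siglec-5,NTHi[+] and 17.2 in Siglec-5,NTHi[−], a ratio of 6.22 with NTHi and 5.93 without. Both Siglec-5/THP-1 signals of FERMT3 lie near the floor, so the size of these ratios is uncertain. RASGRP2, an exchange factor that activates the integrin switch RAP1, was lower in Siglec-14/THP-1, with 288 in Siglec-14,NTHi[+], 277 in Siglec-14,NTHi[−], 537 in Siglec-5,NTHi[+] and 576 in Siglec-5,NTHi[−].

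The other genes of these lists with a 2-fold difference were CYTIP, FGR, PXN, ST3GAL6, ICAM4, PTK2B and ITGB5. CYTIP, a partner of the integrin regulator cytohesin-1, was 3.21-fold higher in Siglec-14/THP-1 with NTHi and 1.75-fold higher without. FGR, a SRC-family kinase of myeloid cells, was 2.20-fold and 2.83-fold higher, and ST3GAL6, a sialyltransferase that serves selectin ligands, 2.62-fold and 1.94-fold. ICAM4, another ICAM, was 2.29-fold and 1.73-fold higher. PXN, which encodes the focal adhesion adaptor paxillin, fell with NTHi in the shared fit (-0.76 on the log2 scale, limma adjusted p = 0.033), with 112 in Siglec-14,NTHi[+], 122 in Siglec-14,NTHi[−], 39.4 in Siglec-5,NTHi[+] and 103 in Siglec-5,NTHi[−]. The stimulated Siglec-5/THP-1 array alone was low for PXN, with folds with NTHi of 0.911 in Siglec-14/THP-1 and 0.381 in Siglec-5/THP-1. PXN also passed as higher in Siglec-14/THP-1 (line term 0.87, limma adjusted p = 0.00087), which rests on the same low array. PTK2B, the kinase PYK2, had 43.9 in Siglec-14,NTHi[+], 40.1 in Siglec-14,NTHi[−], 23.7 in Siglec-5,NTHi[+] and 52.8 in Siglec-5,NTHi[−], and did not pass the fit. ITGB5 had 33.7 in Siglec-14,NTHi[+] and 19.97 in Siglec-14,NTHi[−], with both Siglec-5/THP-1 signals below the floor, so that it was at least 2.11-fold higher in Siglec-14/THP-1 with NTHi, and it did not pass the fit for the line (limma adjusted p = 0.065).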

How the data were processed

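The authors hybridized biotinylated RNA, made from 250 ng of total RNA per sample, to the arrays, quantified them with GeneChip Operating Software (GCOS, version not given in the sources used here) and standardized them on the cumulative signal of all probes. The deposited values are signal intensities on a linear scale, and since their sums differ between arrays, whether they carry that standardization is not known. They were used as deposited. Probe sets were named with the platform annotation: 41097 had 1 gene, 1801 several and 11777 none. Signals under the floor were raised to it before a ratio was called at least 3-fold, with 2-fold and 4-fold as alternatives. limma 3.58.1 (R 4.3.3) was fitted to log2 signals of 32017 probe sets with 1 or more signals at the floor or above, with an intensity trend, prior degrees of freedom that were infinite, and Benjamini-Hochberg adjusted p under 0.05 over all of them. The spread was taken over probe sets with both signals above the floor, split at the 75th percentile of all signals, 105. Both calling steps were tried on simulated data, with large changes planted in bright probe sets only. The steps were not tried on changes in dim probe sets or on responses that differ between the lines. The number of arrays limits the precision.

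The members and lists were chosen with earlier results of these data known. Outside the members, up to 12 genes of the adhesion lists with a ratio of at least 2-fold and the 5 genes nearest to ICAM1 and to VCAM1 are named. ITGB1, the markers and the genes named only for passing the fit were named after their values were seen. Promoter sequences are from RefSeq (GRCh38.p14). Python 3.11.15, numpy 2.4.6, pandas 2.3.3 and matplotlib 3.10.9 were used. Serum assays were not analysed here.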

Additional observations from a re-analysis of the deposited data

Results flagged for a closer look

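ITGAM moved in opposite directions with NTHi in the lines, each by more than 1 SD, counted from 0, of the log2 ratio over probe sets of similar brightness. Counted from the medians of those probe sets, 0.09 in Siglec-14/THP-1 and -0.11 in Siglec-5/THP-1, both ratios lie within 1 SD (0.22 and 0.23). The log2 ratio was 0.28 in Siglec-14/THP-1 and -0.25 in Siglec-5/THP-1, a difference of 0.53. The median of all genes was 0.08 in Siglec-14/THP-1 and -0.11 in Siglec-5/THP-1. The difference was not tested, since each condition has 1 array.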

How the results depend on the processing

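The labels carry no replicate numbers to pair samples by, and the cell line term of the shared fit is what sets NTHi[+] against NTHi[−] within each line. The counts of members at least 3-fold different kept within 1.5 times the count given under scaling to the same median, scaling to the same sum and quantile normalization, with PECAM1 added between the nonstimulated lines under the sum and quantile scalings. With ratios of at least 2-fold, 2 members were called for NTHi in Siglec-14/THP-1, 5 between the stimulated and 4 between the nonstimulated lines, and with 4-fold 0, 0 and 1. With the 75th percentile as the floor, 0 were called for NTHi in Siglec-5/THP-1 and 0 between the nonstimulated lines. With 16 added to each signal, 1 was called between the nonstimulated lines. With the mean over all probe sets of a gene, 0 were called for NTHi in Siglec-14/THP-1, and the log2 ratio of ITGAM without NTHi was -0.16. Leaving out probe sets whose ID ends in _s_at or _x_at removes ICAM1 and VCAM1, which have no other kind: 0 members were then called for NTHi in either line, 1 between the stimulated and 0 between the nonstimulated lines, and in the shared fit 0 for NTHi and 3 for the line. ITGAM then rests on its dim probe set, with a line term of -0.38. In the shared fit, 0 members passed for NTHi and 0 for the line without the intensity trend, with a smallest adjusted p of 0.48 and 0.20, and 0 for NTHi with the cell line left out (smallest adjusted p 0.9998; 2 at an unadjusted p under 0.05). Over all probe sets, the fit called 294 for NTHi, against 617, 1289 and 529 under median, sum and quantile scaling and 192 with the 75th percentile as the filter, and 2715 for the line, against 5746, 6232 and 5254. Under the same 3 scalings ITGB2 passed for the line (limma adjusted p = 0.031, 1.89e-06 and 0.0015), and SELPLG passed as lower with the median scaling (0.016). ITGAX did not pass under quantile normalization (0.059), with no filter (0.096) or with NTHi left out (0.063). Scaling to the same sum moved the median log2 ratio of all genes between the nonstimulated lines from -0.13 to 0.01, which bears on the small ratios of ICAM3, ITGAL, ITGB2 and SELPLG.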
